A study of Mus musculus with 8 samples.

Results

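Collagen genes were examined in 8 tumours that grew under the skin of mice from neural crest cells carrying N-Myc. Every gene whose symbol reads Col, digits, the letter a and digits was taken, which gave 44 genes of 22180 with a value, and each was read from its brightest probe set annotated to that symbol alone. All 44 collagen genes of that form in the RefSeq gene table had a value. The neural crest is the embryonic population that forms, among others, the sympathetic nervous system, Schwann cells and melanocytes, and N-Myc is the transcription factor amplified in high-risk neuroblastoma. The infected cells were a mixture of p53+/- and p53-/- cells (N-Myc; p53mixed), about 10000 of which were put into each nude or C57Bl/6 mouse 48 hours after infection, and the primary tumours were taken after about 50 days. Host strain and p53 genotype are not labelled tumour by tumour, nor is it stated that each tumour had an animal and a culture of its own. All 8 tumours therefore form 1 group (n = 8), nothing normal or untreated was analysed here, and p-values measure the spread between these samples only.

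Collagens are proteins of the extracellular matrix in which chains built on a repeat with glycine at fixed spacing wind into a triple helix. Fibrillar collagens (types I, III and V) assemble into the tension-bearing fibres of connective tissue. Type IV collagen forms the sheet of basement membranes under vessels, muscle and Schwann cells, types VI and VIII form microfibrils and hexagonal networks, and types II, IX, X and XI belong to cartilage. Fibril-associated collagens decorate fibres, and transmembrane collagens stay anchored in the cell surface. In neuroblastoma, as in other solid tumours, matrix may be made by tumour cells and by host fibroblasts, pericytes and endothelium, and RNA of a whole tumour does not separate these sources.

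Levels are given on the log2 scale, so a difference of 1 is a doubling. The background of each array was the 95th percentile of 1440 probe sets for olfactory, vomeronasal and bitter taste receptors, genes used mainly in sensory organs and taken here as largely silent in a tumour, and lay between 5.45 (tumour 3) and 5.66 (tumour 4). Array medians lay between 5.63 and 5.75. A gene was called above background where its mean over the tumours exceeded it with a Benjamini-Hochberg adjusted p under 0.05 in limma, a linear model with moderated variance fitted to all genes. Probe sets differ in brightness, so a level is set against background and between tumours, not against another gene's level. The labelled tumour type was checked on sympathetic neuroblast markers, of which 9 of 9 measured were above background (57.3% of all genes were). Of these 9, 8 were lowest in tumour 6 (16% of all genes above background were). That tumour stood apart (mean of centred levels -1.57 there against -0.14 to 0.60 elsewhere). Gata2 was at 5.45 there, below the array background of 5.54, and Dbh was close to it at 5.72. The other markers were at 6.93 or more in tumour 6.

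Of the promoters of the 44 genes, 35 genes had RefSeq windows (GRCm38.p6, 38 windows, 250 bases before each start). The 3 longer sequences belong to genes whose levels were highest in the same 3 tumours, and the 2 short ones to the type IV pair, whose levels followed each other. Capitals mark the CCAAT box (CCAAT or its reverse complement ATTGG), the TATA motif (TATAA or TTATA, which overlap where both are present), the GC box (GGGCGG or CCGCCC) and the E-box (CACGTG), which is the core site of Myc family proteins, searched on both strands.
Col1a2 (chr6:4505368-4505617, + strand): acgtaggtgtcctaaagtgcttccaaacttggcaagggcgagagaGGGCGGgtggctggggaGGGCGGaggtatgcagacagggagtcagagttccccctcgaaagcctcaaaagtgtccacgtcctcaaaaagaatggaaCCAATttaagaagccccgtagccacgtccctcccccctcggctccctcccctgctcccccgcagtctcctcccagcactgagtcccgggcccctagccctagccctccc
Col3a1 (chr1:45311288-45311537, + strand): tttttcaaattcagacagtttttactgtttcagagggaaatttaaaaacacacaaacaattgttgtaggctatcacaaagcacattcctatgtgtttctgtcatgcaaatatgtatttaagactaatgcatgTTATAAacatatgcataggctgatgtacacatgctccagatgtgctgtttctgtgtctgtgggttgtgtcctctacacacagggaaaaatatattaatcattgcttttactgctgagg
Col6a1 (chr10:76726045-76726294, - strand): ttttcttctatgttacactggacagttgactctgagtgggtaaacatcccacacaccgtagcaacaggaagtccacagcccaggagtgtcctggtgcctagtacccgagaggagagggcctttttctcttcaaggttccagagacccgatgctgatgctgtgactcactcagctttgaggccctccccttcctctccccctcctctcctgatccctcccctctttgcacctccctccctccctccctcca
Col4a1 (chr8:11312954-11312983, - strand): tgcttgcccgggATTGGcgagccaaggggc
Col4a2 (chr8:11312761-11312790, + strand): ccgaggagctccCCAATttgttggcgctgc

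The promoters of Col1a2, Col3a1 and Col6a1 did not share a motif pattern. Col1a2 held 1 CCAAT box and 2 GC boxes, Col3a1 held a TATA motif and neither of those, and Col6a1 held none of the 4 motifs. The full window of Col4a2 held the same motifs as that of Col1a2, with 1 CCAAT box and 2 GC boxes. The full window of Col4a1 held 1 CCAAT box and none of the other motifs. Over all collagen windows, 13 of 38 held a CCAAT box (34.2%, against 33.8% of 32851 promoter windows of the same length), 7 a TATA motif (18.4% against 22.8%) and 22 a GC box (57.9% against 32.7%). None of the 38 windows held the E-box letters, which 6.02% of all windows do. Col4a1 and Col4a2 lie on chromosome 8 and are read in opposite directions from annotated starts 21 bases apart. By these starts, 11312826 (Col4a1, - strand) and 11312805 (Col4a2, + strand), the annotated transcripts overlap. Each window therefore lies on the side that is read for the partner gene, and each holds a CCAAT box. A match is a description of the letters in the window, not a site of binding.

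Above background were 30 of the 44 collagen genes, or 68.18%, against 57.3% of all genes on the arrays (limma, adjusted p under 0.05). The median distance from background was 0.52 over all 44 collagen genes, against 0.68 over all genes, and both medians also depend on probe set brightness. The count rests on the background chosen. Against the 99th percentile of the receptor probe sets, 14 collagen genes were above it (41.9% of all genes were). Against their median all 44 were, a lower background for which the share of all genes was not counted. These 14 were Col1a1, Col1a2, Col3a1, Col4a1, Col4a2, Col5a1, Col5a3, Col6a1, Col6a2, Col6a3, Col8a1, Col9a2, Col12a1 and Col26a1, and the other 16 lay between both backgrounds. The plot of levels by gene shows all 44.

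**Figure D1:**
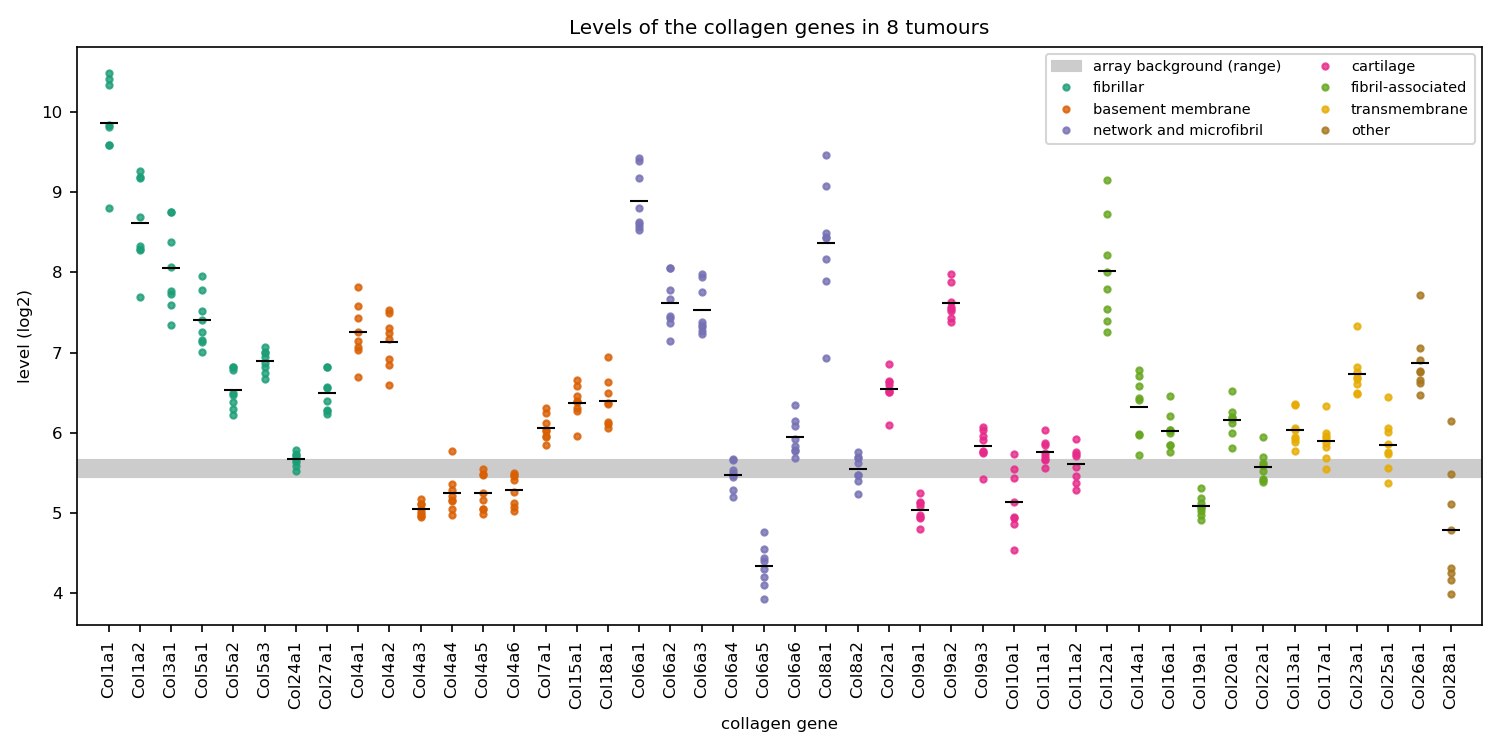
Level (log2, vertical axis) of each of the 44 collagen genes (horizontal axis, coloured by class) in the 8 tumours (points), with the gene mean as a black bar and the range of the array backgrounds (5.45 to 5.66) in grey. Col1a1 (mean 9.86) lies above the grey band in all 8 tumours, and the means of Col4a3, Col4a4, Col4a5, Col4a6, Col6a5, Col9a1, Col10a1, Col19a1 and Col28a1 lie below it.

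By class, 7 of 8 fibrillar genes were above background, with a median distance of 1.56 from it over the 8. The network and microfibril class (types VI and VIII) had 5 of 8, with a median distance of 1.15. The basement membrane class (types IV, VII, XV and XVIII) had 5 of 9 and a median distance of 0.48. Cartilage genes had 4 of 7 and a median distance of 0.18. Of fibril-associated genes 4 of 6 were above background, of transmembrane genes 4 of 4, all of the latter between both backgrounds, and of the remaining genes, Col26a1 and Col28a1, the first only. Over all genes the share was 57.33%. The shares of the network (62.5%), basement membrane (55.56%) and cartilage (57.14%) classes were near it, and that of the fibrillar class was 87.5%. These shares and median distances describe the classes, and no difference between classes was tested. The distances also depend on probe set brightness, so their order is not an order of expression.

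The chains of type I collagen, the main fibre of skin, tendon and bone, were far above background in every tumour. Col1a1 ran from 8.80 in tumour 4 over a median of 9.82 to 10.48 in tumour 3, a mean of 9.86 ± 0.56 (SD, n = 8) and 4.27 ± 0.19 (SE) above background (limma, adjusted p = 2.09e-09). Tumours 3, 6 and 7 were high at 10.48, 10.41 and 10.33, tumour 4 was low, and the other 4 lay between 9.59 and 9.84. Col1a2 ran from 7.70 in tumour 4 to 9.26 in tumour 7 with a median of 8.51 (8.62 ± 0.56, 3.03 above background, limma, adjusted p = 2.98e-08), and the same 3 tumours were above the rest. Its second probe set had a lower mean, 6.56, and followed the first over the 8 tumours (r = 0.965). Col3a1, the partner of type I in elastic tissues and vessel walls, ran from 7.34 in tumour 4 over a median of 7.92 to 8.76 in tumour 3 (8.05 ± 0.53). Here too tumours 3, 7 and 6 were the highest and tumour 4 the lowest.

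Type V collagen sits in the core of type I fibres and limits their width. Col5a1 ran from 7.01 in tumour 2 over a median of 7.33 to 7.96 in tumour 3 (7.40 ± 0.33), and Col5a2 from 6.22 in tumour 2 over a median of 6.48 to 6.82 in tumour 6 (6.54 ± 0.24). Col5a2 was at 6.78 to 6.82 in tumours 3, 6 and 7, its 3 highest, and at 6.22 to 6.50 in the others. Both sets were picked from these values, so the gap between them is a description. A second probe set of Col5a1, at a mean of 5.97, did not follow the first (r = -0.25), and the gene is read here from the brighter one. Col5a3, another type V chain, varied little (6.68 to 7.07, median 6.91, SD 0.14). Of the fibrillar genes thought to act in developing cartilage and bone, Col27a1 was at 6.49 ± 0.24, highest in tumours 4 and 5, and Col24a1 was not called above background (5.67 ± 0.08, limma, adjusted p = 0.12).

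Type VI collagen, whose beaded microfibrils link cells, nerves and vessels to the surrounding matrix, followed the fibrillar pattern in 3 chains. Col6a1 was at 9.17 to 9.42 in tumours 3, 6 and 7 and at 8.52 to 8.81 in the other 5 (median 8.72, 8.89 ± 0.38, 3.30 above background, limma, adjusted p = 1.38e-10). Its second single-gene probe set followed it (r = 0.939). Col6a3 was at 7.76 to 7.97 in the same 3 tumours and at 7.23 to 7.39 in the others (median 7.36), and Col6a2 ran from 7.15 in tumour 5 over a median of 7.56 to 8.05 in tumours 3 and 6. Of the 3 newer chains, which are related to Col6a3, Col6a6 was above background by 0.36 and had another order (5.69 in tumour 3 to 6.35 in tumour 6), while Col6a4 and Col6a5 were not, at means of 5.47 and 4.33. Col8a1, a chain of the hexagonal networks of vessel wall and cornea, had the largest SD of the 30 genes above background (0.76). It ran from 6.94 in tumour 4 over a median of 8.44 to 9.08 in tumour 6 and 9.47 in tumour 7. Its partner chain Col8a2 was not called above background (5.54 ± 0.18, limma, adjusted p = 0.527).

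Fibril-associated collagens split in the same way. Col12a1, which coats type I fibres in tissues under load, ran from 7.25 in tumour 4 over a median of 7.90 to 8.73 in tumour 6 and 9.15 in tumour 7 (SD 0.66). Col14a1, its relative, was close to background (6.32 ± 0.39) and highest in tumours 3, 7 and 6 at 6.78, 6.71 and 6.58. Col16a1 and Col20a1 were at 6.02 ± 0.23 and 6.16 ± 0.21, highest in tumour 4 and tumour 6 respectively, and Col19a1 and Col22a1 were not above background (5.08 and 5.58).

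Tumours 3, 6 and 7 were the 3 highest tumours for 9 of the 14 genes above the stricter background, namely Col1a1, Col1a2, Col3a1, Col5a1, Col6a1, Col6a2, Col6a3, Col8a1 and Col12a1. Over all 9296 genes above that background this held for 2.15%. Over the 30 genes it held for these 9 and for Col5a2 and Col14a1, against 2.28% of all genes above the lower background. This set of tumours was chosen after the values were seen, and the 9 genes are read from the same 8 arrays. Tumour 3, 6 or 7 was the highest tumour for 12 of the 14, against 44.4% of all such genes. Tumour 4 was the lowest tumour for 7 of the 14, against 14.4% of all genes above that background. The map of centred levels shows both blocks.

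**Figure D2:**
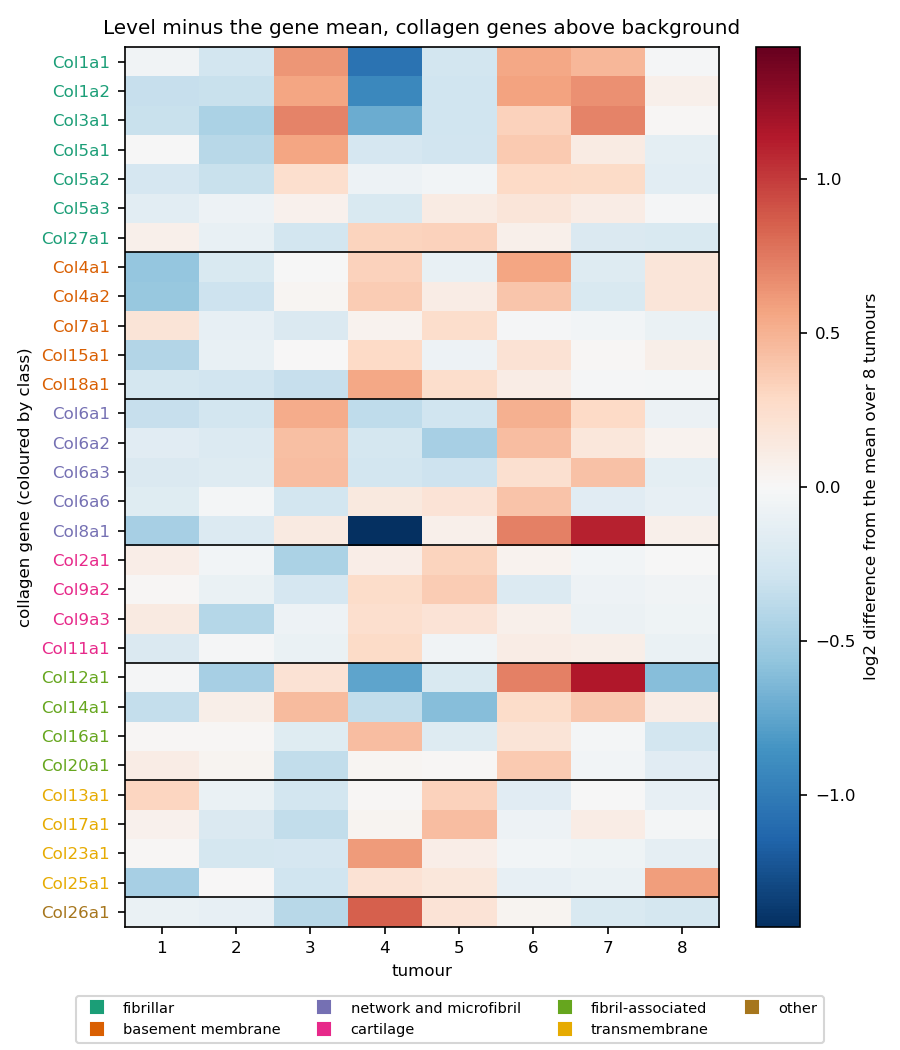
Level of each of the 30 collagen genes above background (rows, coloured by class) in each tumour (columns) minus the gene's mean over the 8 tumours (log2, red higher, blue lower). Col1a1, Col1a2, Col3a1, Col6a1, Col6a2, Col6a3, Col8a1 and Col12a1 are red in tumours 3, 6 and 7 and blue in tumour 4, where Col4a1, Col4a2, Col18a1, Col23a1 and Col26a1 are red.

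Basement membrane collagen had another order of tumours. Col4a1 ran from 6.70 in tumour 1 over a median of 7.20 to 7.82 in tumour 6, with 7.58 in tumour 4 and 7.43 in tumour 8 (7.25 ± 0.35, 1.67 above background, limma, adjusted p = 3.25e-08). Col4a2, its partner in the ubiquitous type IV protomer, ran from 6.59 in tumour 1 over a median of 7.20 to 7.53 in tumour 6 and 7.49 in tumour 4 (7.14 ± 0.33). Tumour 4, the lowest for Col1a1 and Col3a1, was thus the second highest for both. The chains of specialised basement membranes, those of kidney, lung and muscle, were not above background: Col4a3, Col4a4, Col4a5 and Col4a6 had means of 5.04, 5.25, 5.25 and 5.29. Among these, Col4a4 exceeded the background of its array in tumour 4 alone (5.78).

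The multiplexins of the basement membrane zone, from which the angiogenesis inhibitors restin and endostatin are cut, lay between both backgrounds. Col15a1 ran from 5.96 in tumour 1 over a median of 6.39 to 6.66 in tumour 4, and Col18a1 from 6.06 in tumour 3 over a median of 6.37 to 6.94 in tumour 4. Both were highest in tumour 4, and the next highest tumour was at 6.59 for Col15a1 and 6.64 for Col18a1. Col7a1, the anchoring fibril of skin, was at 6.06 ± 0.15. No gene of this class reached the SD of 0.41, the 99th percentile of receptor genes, which 5 of the 30 collagen genes exceeded (14.6% of all genes above background did): Col1a1, Col1a2, Col3a1, Col8a1 and Col12a1. The median SD was 0.29 for the 30 collagen genes and 0.23 for all genes above background.

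Of the cartilage collagens, Col9a2 alone was above both backgrounds. Col9a2, a chain of the type IX collagen on cartilage fibrils, ran from 7.38 in tumour 3 over a median of 7.56 to 7.88 in tumour 4 and 7.98 in tumour 5 (7.61 ± 0.21, 2.03 above background, limma, adjusted p = 3.33e-11). Of its partner chains, Col9a3 was called above the lower background (5.84 ± 0.21) and Col9a1 was not (5.03 ± 0.14). Col2a1, the main cartilage fibre, was at 6.55 ± 0.22, and its fibril partners Col11a1 and Col11a2 were at 5.76 ± 0.15 and 5.60 ± 0.22, the latter not called above background (limma, adjusted p = 0.797). Col10a1, a marker of hypertrophic cartilage, was below background over the 8 tumours (5.14 ± 0.40), but exceeded the background of its array in tumour 4 alone (5.73). Of 13 measured cartilage and bone markers 4 were above background (Sox9, Sox5, Sox6 and Alpl), against 57.3% of all genes. Among the others, Acan, Matn1, Hapln1 and Comp had means of 4.72, 4.61, 4.35 and 5.30. Cnmd, of the same list, had a mean of 4.58, but was at 6.34 in tumour 4 and at 4.05 to 4.58 elsewhere. The background of the array of tumour 4 was 5.66.

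Tumour 4 was the highest tumour for 7 of the 30 genes above background (13.3% of all such genes): Col9a3, Col11a1, Col15a1, Col16a1, Col18a1, Col23a1 and Col26a1. Col26a1 was at 7.72 there and at 6.47 to 7.06 in the others (median 6.76). Col23a1, a transmembrane collagen, was at 7.34 against 6.48 to 6.83 elsewhere (median 6.68). Both values lay clear of the other 7 tumours. Col28a1, a short collagen known from peripheral nerve and glia, was not above background over the 8 tumours (4.78 ± 0.76), but reached 6.15 in tumour 4 and 5.49 in tumour 6 with a range of 3.99 to 5.11 for the remaining 6, and exceeded the array background in tumour 4 alone. The other transmembrane genes were close to background, with Col13a1 at 6.04 ± 0.21, Col17a1 at 5.89 ± 0.23 and Col25a1, found in amyloid plaques and in motor innervation, at 5.85 ± 0.33 and highest in tumour 8 (6.45). The call of Col25a1 was lost without tumour 4, 5 or 8 (0.25, 0.25 and 0.18 above background, limma, adjusted p = 0.0510, 0.0527 and 0.0543).

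Of the 16 genes called above the lower background only, 8 were lowest in tumour 3 (8.7% of all genes above background were). Highest in tumour 4 or 5 were 11 (6 and 5 genes, against 13.3% and 14.2%). Shares set beside the 16 are those of all genes above background, brighter ones included. The share among genes called above the lower background only was not counted. The 16 had no common order, as Col5a2 and Col14a1 were highest in tumours 3, 6 and 7. Nor was the order theirs alone, as the brighter Col9a2 and Col26a1 were lowest in tumour 3 and highest in tumours 5 and 4. The array background itself was lowest in tumour 3, at 5.45, and 5.66 and 5.63 in tumours 4 and 5. With the background of each array subtracted, 2 of the 16 were lowest in tumour 3 and 7 in tumour 2 (3.2% and 11.9% of all genes above background), while 5 and 5 were highest in tumours 4 and 5 (8.31% and 8.41%). In the 14 brighter genes the subtraction left 7 lowest in tumour 4, against 21% of all genes above the stricter background.

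The next comparison asked whether chains of 1 protein, or collagens of the same fibre or tissue, followed each other over the tumours. Of 30 pairs listed from chain composition, class and cell type markers, 24 had both genes above background, and 6 passed an exact permutation test of Pearson's r, two-sided, at a Benjamini-Hochberg adjusted p under 0.05 over the 24. Of these, 3 involve Col6a1, whose levels fell into 2 separate sets of tumours, and are described by those sets rather than by r. Col4a1 and Col4a2 had r = 0.95 over 8 tumours (exact permutation p = 0.0003224, adjusted p = 0.005556) and Spearman's rho = 0.98 (exact permutation, adjusted p = 0.009524), and r = 0.91 without tumours 1 and 6, the 2 farthest from the median. Col1a1 and Col1a2 had r = 0.97 (exact permutation p = 0.001364, adjusted p = 0.006548), and r = 0.95 without tumours 3 and 4. Their rho of 0.83 missed the threshold (exact permutation, adjusted p = 0.06151). Col1a1 and Col3a1 had r = 0.92 (exact permutation p = 0.0005208, adjusted p = 0.005556), rho = 0.95 (exact permutation, adjusted p = 0.01369) and r = 0.91 without tumours 3 and 4. Leaving out any 1 tumour, r stayed between 0.90 and 0.99 for these 3 pairs.

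**Figure D3:**
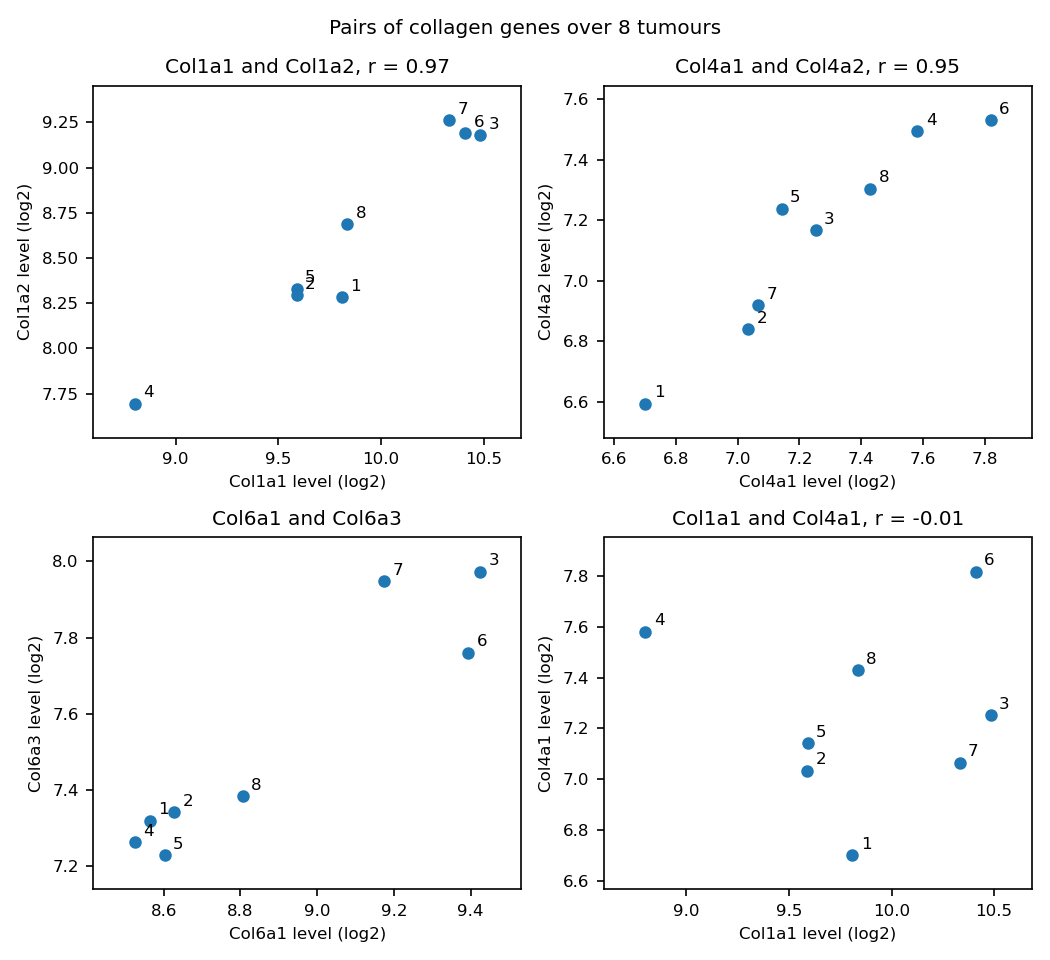
Levels (log2) of 4 pairs of collagen genes in the 8 tumours, each point labelled with its tumour. Col1a1 with Col1a2 and Col4a1 with Col4a2 lie along a line (r = 0.97 and 0.95), Col6a1 with Col6a3 falls into tumours 3, 6 and 7 and the other 5, and Col1a1 with Col4a1 shows no line (r = -0.01).

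Other pairs, of partner chains and of collagens of the same fibre or tissue, did not pass. For the chains Col5a1 and Col5a2 the adjusted p was 0.0604 (exact permutation), and Col5a2 is described by its separate sets of tumours. Col5a1 and Col5a3 had r = 0.50 (exact permutation, adjusted p = 0.3489), rho = 0.38 (exact permutation, adjusted p = 0.5758) and r = 0.21 without tumours 3 and 6. Of the pairs of the same fibre or tissue, Col15a1 and Col18a1 had r = 0.65 (exact permutation, adjusted p = 0.1742). Their rho was 0.60 (adjusted p = 0.3175 by exact permutation), and r was 0.30 without tumours 1 and 4. Col2a1 and Col11a1 had r = 0.16 (exact permutation, adjusted p = 0.8397). The other 6 partner pairs, Col4a3 with Col4a4, Col4a5 with Col4a6, Col8a1 with Col8a2, Col9a1 with Col9a2 and with Col9a3, and Col11a1 with Col11a2, each had a chain that was not above background and were left out of the 24. With them added, their r ran from -0.25 to 0.78 and none passed (exact permutation, lowest adjusted p = 0.138 over the 30).

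Across classes, Col1a1 and Col4a1 showed no relation that passed. Their r was -0.01 (exact permutation, adjusted p = 0.9836) and rho 0.21 (exact permutation, adjusted p = 0.7429), and r ran from -0.39 without tumour 6 to 0.47 without tumour 4. Tumour 6 was high for both genes, and tumour 4 was low for Col1a1 and high for Col4a1. As a description over all pairs of the 30 genes, the median r was 0.81 between fibrillar and network genes (35 pairs), 0.75 within the fibrillar class (21 pairs), 0.61 within the basement membrane class (10 pairs) and 0.10 between fibrillar and basement membrane genes (35 pairs), against 0.12 over all 435 collagen pairs and 0.01 over all pairs of genes above background. Single pairs ran from -0.69 to 0.97 within the fibrillar class, where Col27a1 had a negative r with every other gene. Within the basement membrane class they ran from -0.34 to 0.95. Genes of these pairs share the same 8 arrays and are not independent.

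Markers of other cell types were measured in the same RNA, in which fewer cells of a type cannot be told apart from less RNA per cell. Of fibroblast and pericyte markers 12 of 13 were above background, of endothelial markers 10 of 12, of macrophage markers 10 of 11, of Schwann cell and glia markers 5 of 8 and of skeletal muscle markers 7 of 10, against 57.3% of all genes. The mean of centred fibroblast and pericyte markers peaked at 0.31 in tumour 3 and 0.26 in tumour 6 and was -0.53 in tumour 1, with 0.04 in tumour 7 and -0.01 in tumour 4. Its members differed in tumour 7, where Pdgfra, Dpt and Dcn were second highest (6.58, 8.56 and 8.39) and Tagln, Cspg4 and Fbln1 were lowest (7.27, 6.37 and 9.26). Fibrillar collagens were at 0.36, 0.34, 0.30 and -0.41 in tumours 3, 6, 7 and 4 and at -0.14 in tumour 1. Endothelial markers had their top mean, 0.70, in tumour 4 and their bottom mean, -0.62, in tumour 1, the tumours in which basement membrane collagens were highest (0.31) and lowest (-0.32), but endothelial markers were at 0.06 in tumour 6 where these collagens were at 0.25. Schwann cell and glia markers averaged 2.02 in tumour 4 and 1.50 in tumour 6, and every other tumour was below 0. Summed over all measured markers, the list of glia ran from 46.41 to 68.06, that of endothelium from 77.58 to 92.99 and that of fibroblasts and pericytes from 93.55 to 104.58. The sums were 80.02 to 93.02 for macrophage markers, 10 of 10 of which were highest in tumour 3 (mean 0.69, against 13.7% of all genes above background), and 59.45 to 83.83 for skeletal muscle markers, highest in tumours 6, 3 and 8 (1.36, 1.02 and 0.93). The part of these cell types in the collagen levels was not tested.

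**Figure D4:**
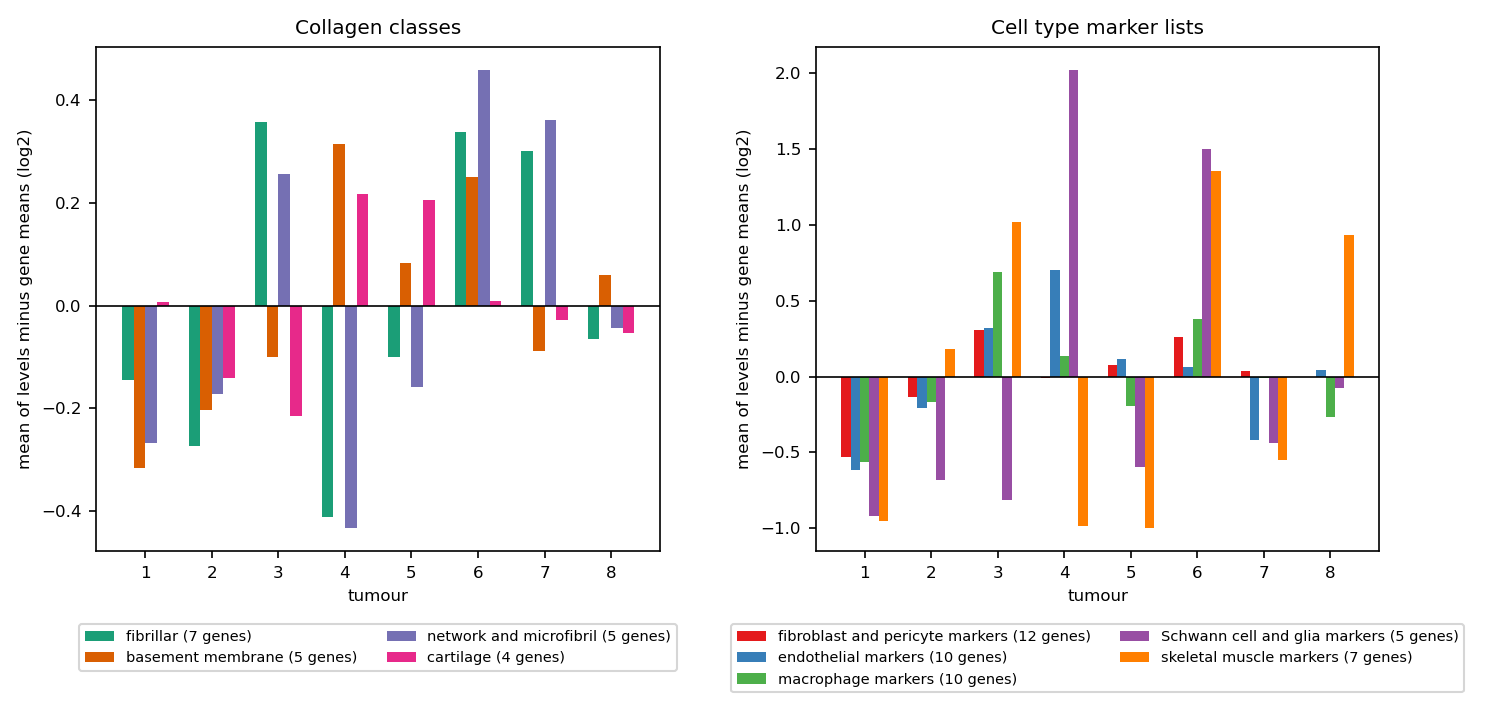
Mean over the genes above background of 4 collagen classes (left) and 5 cell type marker lists (right) in each tumour, as log2 level minus the gene mean over the 8 tumours (bars, vertical scales differ). Fibrillar and network collagens are highest in tumours 3, 6 and 7 and lowest in tumour 4, where basement membrane collagens (0.31), endothelial markers (0.70) and glia markers (2.02) are highest.

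Single markers showed no relation with the collagen genes that passed. Col4a1 and the endothelial cadherin Cdh5 had r = 0.69 (exact permutation p = 0.05506, adjusted p = 0.1468), rho = 0.71 (exact permutation, adjusted p = 0.1974) and r = 0.77 without tumours 1 and 6, and Col1a1 and the fibroblast receptor Pdgfra had r = 0.47 (exact permutation, adjusted p = 0.378) and rho = 0.48 (exact permutation, adjusted p = 0.4487). Without tumour 6 the pair of Col4a1 and Cdh5 passed (r = 0.88, exact permutation, adjusted p = 0.0405). Col1a1 had r = -0.34 with Cdh5 and 0.20 with the macrophage receptor Csf1r, and Col4a1 had r = 0.55 with Csf1r and 0.14 with Pdgfra (exact permutation, adjusted p = 0.5464, 0.8096, 0.2969 and 0.8421). Sox10, a glial factor, was at 8.32 and 8.05 in tumours 4 and 6 and at 5.43 to 6.30 in the others, and no r over all 8 tumours is given. Among the other 6 tumours its r was 0.24 with Col4a1 and -0.09 with Col1a1 (exact permutation p = 0.6639 and 0.8194). Over all 8, Col4a1 with Sox10 had the lowest adjusted p of the 12 marker pairs (exact permutation, 0.0603). It was 0.0305 after renewed quantile normalization and 0.0492 without tumour 3. Col1a1 with Sox10 had 0.5425 (exact permutation). Col6a1 had adjusted p = 0.1671, 0.8712, 0.2969 and 0.9494 with Pdgfra, Cdh5, Csf1r and Sox10 (exact permutation).

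Of 28 measured enzymes and chaperones that mature collagen 24 were above background (57.3% of all genes were), and 12 of the 24 had an SD past 0.41 (14.6% of all genes above background had). Lox, which cross-links fibres, reached 8.39 in tumour 3 and 7.86 in tumour 6, stayed between 6.62 and 7.13 in 5 tumours and was lowest, at 5.90, in tumour 4. Plod1 and Plod2 hydroxylate lysines of the chains. Plod1 reached 8.40, 8.15 and 7.65 in tumours 4, 6 and 3 and stayed between 6.64 and 6.85 in the other 5, while Plod2 ranged from 6.41 (tumour 5) to 8.88 (tumour 6). Of breakdown genes 10 of 15 were above background, a share near the 57.3% of all genes. Timp1, an inhibitor of matrix proteases, ran from 7.33 in tumour 8 to 9.50 in tumour 3, Timp3, another, from 6.60 in tumour 1 to 8.71 in tumour 4, and the protease Ctsk from 5.89 in tumour 2 to 7.23 in tumour 3.

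Of 9 measured collagen receptors 6 were above background, and the shares of receptors, fibril partners and basement membrane partners were all near the 57.3% of all genes. Ddr2, a receptor tyrosine kinase for fibrillar collagen, had the largest SD of the receptors (1.22), with 9.13 for tumour 1, 8.39 for tumour 3 and a range of 5.82 to 7.15 over the remaining 6. Itga1, an integrin chain that prefers type IV, ran from 6.10 in tumour 1 to 7.79 in tumour 6 and Lair1, an inhibitory receptor of immune cells, from 6.10 in tumour 5 to 7.07 in tumour 3. Of 19 measured fibril partners 12 were above background, with Tnc, Postn and Dcn varying most. Postn was at 10.65, 10.49 and 10.13 in tumours 7, 3 and 6 and at 8.13 in tumour 4, the order of Col1a2 and Col8a1 at both ends. Tnc ran from 6.95 in tumour 2 to 9.62 in tumour 3, and Dcn, which binds type I fibres, from 6.79 in tumour 1 to 9.01 in tumour 3. Of 17 basement membrane partners 11 were above background, and 8 of the 11 were highest in tumour 4, against 13.3% of all genes above background. Among them Nid1, which links type IV collagen to laminin, was at 9.57 in tumour 4 and 6.79 in tumour 1, Lama4 at 8.50 and 6.48 and Nid2 at 8.13 and 6.95, the direction that Col4a1 and Col4a2 took between these 2 tumours.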

How the data were processed

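Per the labels' protocols, RNA came from a Trizol extraction, and biotinylated cRNA was hybridised to Affymetrix arrays, 1 for each tumour. The deposited values are log2 levels per probe set, made by the authors with RMA and Partek 6.5 per the submitters' processing notes. That the scale is log2 follows from the range of values, 2.07 to 13.61. Further options and the genome build: not given in the sources used here. Of 41345 probe sets 23521 carried 1 gene symbol, 1814 carried several and named no gene, and 16010 were unnamed. The collagen genes had 47 single-symbol probe sets.

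Detection used limma 3.58.1 in R 4.3.3 (trend and robust prior) on level minus array background and was tested on simulated data. Relations were tested by exact permutation of 40320 pairings in Python 3.11.15 (numpy 2.4.6, pandas 2.3.3). Figures used matplotlib 3.10.9. A gene was taken to fall into separate sets where a gap between neighbouring tumours, with at least 2 on each side, was 0.4 of its range or more, a limit chosen after the values were seen. The share of all genes with such a gap was not counted. Classes, pairs and 12 gene lists (179 entries) were written by hand. Named genes are all collagen genes, with values by tumour for those in the pairs and the 10 with the largest SD above background, and the 3 genes above background with the largest SD of each collagen-related list, and other genes named were chosen after their values were seen. The members and lists were chosen with earlier results of these data known. Alternatives were the mean of all probe sets, renewed quantile normalization, other backgrounds, limma without trend or robust prior, an SD of 1, pairs of all measured genes, each tumour left out and, added after seeing the data, level minus array background for relations.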

Additional observations from a re-analysis of the deposited data

Results flagged for a closer look

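Over the 30 collagen genes above background, 2 had a tumour set apart from the other 7 by a gap that is large against the gene's range (above Dixon's 95% critical value for 8 tumours), and chance flags about 1 gene in 20. The count of 2 in 30 is near that rate, and the share of all genes flagged by this rule was not counted. Col23a1 was at 7.34 in tumour 4, against 6.48 to 6.83 in the other 7 (ratio 0.596). Col2a1 was at 6.09 in tumour 3, against 6.50 to 6.86 in the other 7 (ratio 0.536), and tumour 3 also had the lowest array background, 5.45.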

How the results depend on the processing

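With the 99th percentile of receptor probe sets as background, 14 collagen genes were called. Of the 30 genes called otherwise, 15 then had a mean below background: Col2a1 (-0.046), Col5a2 (-0.054), Col6a6 (-0.64), Col7a1 (-0.53), Col9a3 (-0.75), Col11a1 (-0.83), Col13a1 (-0.55), Col14a1 (-0.27), Col15a1 (-0.21), Col16a1 (-0.57), Col17a1 (-0.70), Col18a1 (-0.20), Col20a1 (-0.44), Col25a1 (-0.74) and Col27a1 (-0.10). Col23a1 lay 0.14 above it and was not called (limma, adjusted p = 0.184). With their median as background 44 were called, and the share of all genes was not counted there. The count was 30 with the mean of probe sets, with renewed quantile normalization and without limma's trend and robust prior, and 29 to 30 with each tumour left out. Genes with a wide spread numbered 6 with the mean of probe sets or renewed normalization, 4 to 6 with each tumour left out and 0 at an SD of 1. Relations that passed numbered 6 to 7 under every alternative run. Col4a1 with Cdh5 passed without tumour 6 (r = 0.88, against 0.69 over all 8). For pairs with a gene in separate sets of tumours, adjusted p-values by exact permutation are given without r. For Col4a1 with Sox10 it was 0.0603, with 0.0305 after renewed normalization and 0.0492 without tumour 3. For Col5a1 with Col5a2 it was 0.0604, with 0.0449 without tumour 1 and 0.0179 with array background subtracted. For Col6a1 with Col6a3 it was 0.0234, with 0.0837 without tumour 3. No paired analysis was possible because the tumours form 1 group. The number of arrays and the distance of a gene from background limit the precision.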
